A study of Mus musculus with 4 samples.

Results

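The Hox genes are the 39 transcription factor genes that sit in 4 clusters of the mouse genome, and all 39 were found among the 55487 genes of the count table by their symbols, the letters a to d for the cluster and a number for the paralog group. RNA of whole mammary fat pad (MFP) was sequenced in 2 aged samples, from mice of 14 months, and 2 young samples, from mice of 8 weeks, all of strain c57b/6j, with no treatment named in the labels, and labelled as biological replicates. The labels give neither the sex nor which pad along the flank was taken, and they do not say how many animals went into a sample. The study's methods name female mice for its animal work, without a separate statement for the sequenced pads. Melanoma cells were injected into the lower left pad elsewhere in the study, and whether that pad was the one sequenced is not stated. A mammary fat pad holds adipocytes, stroma, vessels, mammary ducts and, in some pads, a lymph node, so each value is an average over these cells, and fewer cells of a type cannot be told apart from less RNA per cell. The question asked of the Hox genes was which stretch of the body axis they report in the fat pad, and whether the aged and young samples differed in it.

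Hox genes are switched on in the embryo in the order in which they lie in their cluster. Low-numbered (anterior) genes act in the hindbrain and neck, middle-numbered (central) genes in the trunk, and high-numbered (posterior) genes in the loin, sacrum, tail and limbs. Adult fibroblasts and fat cell precursors keep much of this pattern, so that the Hox genes transcribed in a tissue carry a record of where on the body it formed. In fat, sets of Hox genes are known to differ between depots, and in the mammary gland genes of groups 9 and 10 have roles in ductal growth and lactation. For description, groups 1 to 3 are called anterior here, groups 4 to 8 central and groups 9 to 13 posterior.

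In the GRCm38 genome the Hoxa cluster, with 11 genes, spans chr6:52155590-52260880 and the Hoxb cluster, with 10 genes, chr11:96194316-96368256. The Hoxc cluster, with 9 genes, spans chr15:102921103-103036852 and the Hoxd cluster, also with 9 genes, chr2:74668310-74765142. All 39 identifiers and symbols matched the GENCODE M21 annotation of that build, from which exon lengths were taken. Total counts were 83936413 and 98402403 in aged replicates 1 and 2, and 77661766 and 68803304 in young replicates 1 and 2. At this depth 3 counts correspond to between 0.0337 and 0.0407 CPM (the usual unit of a gene's count as a share of its library total, here with totals scaled by the TMM method), a floor that covers counting error only.

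Young replicate 1 stood apart from the other samples in its cell type markers. The summed level of 8 lymph node genes (B and T cell genes and follicle genes such as Cr2 and Cxcl13) was 688 CPM there, against 3.20 CPM in young replicate 2 and 7.01 and 59.3 CPM in aged replicates 1 and 2. The summed level of 8 mammary epithelial genes was lowest in the same sample, at 914 CPM against 1671 to 2219 CPM elsewhere. The aged samples held more muscle RNA, with a summed level of 8 skeletal muscle genes of 20142 and 38219 CPM against 5588 and 8473 CPM in the young samples. Hox results are therefore given with and without young replicate 1 where they rest on it.

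The fat pad transcribed a broad stretch of each cluster and almost nothing of its posterior end. Of the 39 Hox genes, 25 reached a mean of 1 CPM over the 4 samples, 4 more were counted often enough to be tested, and 10 were not. At 1 CPM or more the transcribed stretch reached Hoxa10 in the Hoxa cluster and ran from Hoxc4 to Hoxc10 in the Hoxc cluster, in all 4 samples. In the Hoxb cluster it ran from Hoxb2 to Hoxb9 in both aged samples and to Hoxb8 in both young ones. In the Hoxd cluster it ran from Hoxd4 to Hoxd9, and to Hoxd10 in aged replicate 2 alone.

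**Figure D1:**
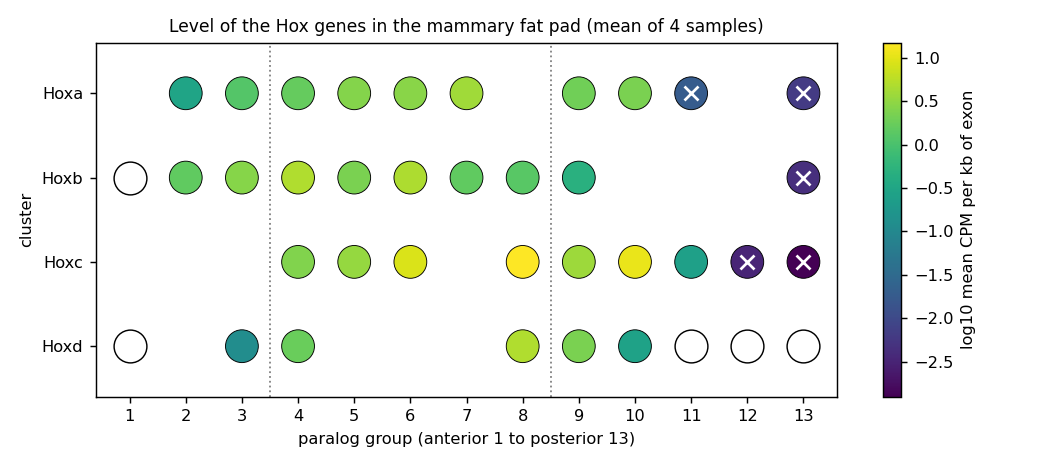
Mean level of the Hox genes over the 4 samples, as log10 CPM per kilobase of exon (colour), by cluster (rows) and paralog group from anterior 1 to posterior 13 (columns). Open circles are genes with 0 counts in every sample, crosses are genes with counts that were too few to be tested, blank places have no gene or a gene that is not shown, and dotted lines part the anterior, central and posterior groups; the brightest points are Hoxc8, Hoxc10 and Hoxc6.

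The 10 genes without a test mark the ends of the axis. Hoxb1 and Hoxd1, genes of the embryonic hindbrain and its surroundings, had 0 counts in every sample, as did Hoxd11, Hoxd12 and Hoxd13, which pattern the limb and the genital tubercle. Hoxa11 and Hoxa13, needed for uterus, limb and urogenital tract, had 14 and 5 counts in all. Hoxb13, a gene of prostate and tail, had 3 counts over the 4 samples. Hoxc12 and Hoxc13, the latter a gene of hair and nail, had 1 count each. These counts leave RNA of the last paralog groups at or near the floor in aged and young samples alike.

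The Hoxd cluster shows the step from a transcribed to a silent stretch over several neighbouring genes. From Hoxd8 through Hoxd9 and Hoxd10 to Hoxd11 the counts summed over the 4 samples were 4351, 1624, 172 and 0, with all of these genes on the plus strand. The 250 bases before the RefSeq start of 3 of these genes (GRCm38.p6, plus strand, CpG in capitals) are shown because they border a well transcribed, a weakly transcribed and a silent gene.
Hoxd8, chr2:74704365-74704614: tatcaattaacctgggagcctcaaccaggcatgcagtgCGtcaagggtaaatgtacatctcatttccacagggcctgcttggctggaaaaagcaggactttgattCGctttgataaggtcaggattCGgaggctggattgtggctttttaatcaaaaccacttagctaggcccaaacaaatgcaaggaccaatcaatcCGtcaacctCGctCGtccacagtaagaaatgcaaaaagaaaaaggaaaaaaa
Hoxd10, chr2:74691641-74691890: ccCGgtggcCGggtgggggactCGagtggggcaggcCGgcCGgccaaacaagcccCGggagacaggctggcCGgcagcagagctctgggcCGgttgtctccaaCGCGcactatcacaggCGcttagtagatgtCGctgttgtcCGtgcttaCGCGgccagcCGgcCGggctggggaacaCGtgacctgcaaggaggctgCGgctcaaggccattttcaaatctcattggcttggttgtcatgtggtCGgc
Hoxd11, chr2:74679308-74679557: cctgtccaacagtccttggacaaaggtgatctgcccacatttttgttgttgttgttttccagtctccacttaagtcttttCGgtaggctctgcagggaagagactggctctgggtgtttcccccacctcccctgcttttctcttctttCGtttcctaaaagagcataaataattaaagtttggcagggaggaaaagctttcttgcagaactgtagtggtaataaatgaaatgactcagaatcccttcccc
CpG dinucleotides, the sites of DNA methylation, numbered 6 in the Hoxd8 window, 20 in the Hoxd10 window and 2 in the Hoxd11 window. A second RefSeq start of Hoxd11 has 20 CpG in its window, as many as the Hoxd10 window. RefSeq windows were at hand for 22 of the 39 Hox genes, 24 windows in all, with a median of 12.5 CpG against 6 over 32851 windows of all genes. Windows of the Hox genes tested had a median of 12 and those of the genes not tested 16.5.

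Sequences like those bound by upstream regulators were found in few of these windows, on either strand. TTTATG, the core bound by caudal-type (Cdx) factors, lay in 5 of the 24 Hox windows (those of Hoxa7, Hoxb8, Hoxd3, Hoxd4 and Hoxd11) and in 10.8% of all windows. TGATNNAT, a core bound by Hox and Pbx proteins together, lay in 4 Hox windows (Hoxa2, Hoxb1, Hoxb8 and Hoxd11) and in 7.68% of all windows. AGGTCA repeated directly after a gap of 5 bases, the element read by retinoic acid receptors, lay in none of the Hox windows and in 3 windows of all. These are matches of letters only, and TTTATG and TGATNNAT were present before silent as well as transcribed genes.

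Hoxc8 RNA was the most abundant per kilobase of exon. The mean over the 4 samples was 15.03 CPM per kb for Hoxc8, 10.9 for Hoxc10 and 8.70 for Hoxc6. Next came Hoxd8 at 4.82, Hoxb4 at 4.82 and Hoxb6 at 4.80 CPM per kb, whose order changed from sample to sample. Hoxa7 at 4.00, Hoxc9 at 3.82 and Hoxc5 at 3.38 CPM per kb followed. The Hoxc cluster alone carried 50% and 52.2% of the summed Hox CPM per kb in the aged samples and 47.1% and 46.1% in the young. Hoxc8 ranked first in aged replicate 1 and both young samples. In aged replicate 2 Hoxc10, at 17.1 CPM per kb, was above Hoxc8 at 15.1.

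**Figure D2:**
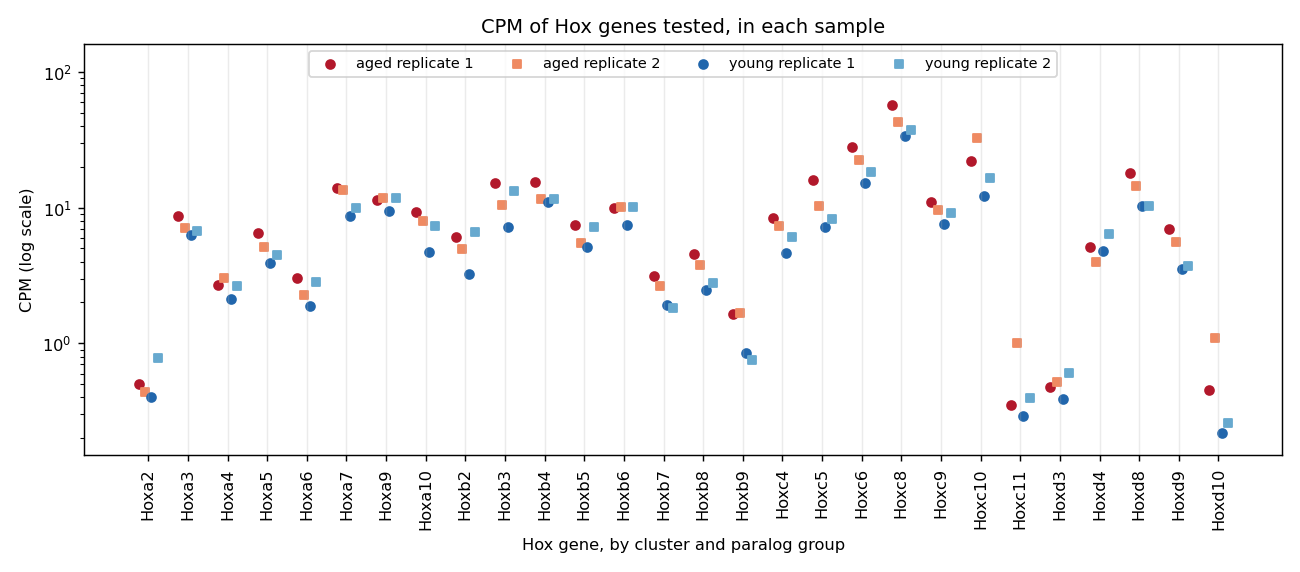
CPM (log scale) of the Hox genes tested, all but 1, ordered by cluster and paralog group, in aged replicates 1 and 2 and young replicates 1 and 2. Hoxc8 is the highest in 4 of 4 samples on this scale, both aged points lie above both young points for most genes, and aged replicate 2 stands alone at the top for Hoxc10, Hoxc11 and Hoxd10.

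Between ages, most Hox genes had higher values in the aged fat pad, and none passed the test. All 22485 genes with enough counts were fitted together with edgeR's quasi-likelihood test, and 0 genes were called at a Benjamini-Hochberg adjusted p of 0.05, a background of 0.00%. The smallest adjusted p of a Hox gene was 0.445. DESeq2 called 865 of the 22385 genes it gave an adjusted p, or 3.86%, and 0 Hox genes, the smallest Hox value being 0.122. At an unadjusted p under 0.05 edgeR had 7 Hox genes higher in aged samples and 0 lower, against 7.24% and 3.31% of all genes, and DESeq2 had 9 in all, against 13.2% of the genes that passed the filter on low counts. The edgeR count with 1 sample left out was 2 without aged replicate 1, against 4.28% of all genes, 1 without aged replicate 2, against 3.98%, 2 without young replicate 1, against 12.2%, and 7 without young replicate 2, against 27.7%. It was 1 with the replicate number as a block, against 5.99%, 4 with the numbers crossed, against 11.1%, and 0 with scaling by total counts only, against 12.2%. With all 4 samples the Hox share lay above that of all genes in the main edgeR fit, in DESeq2 and with the numbers crossed. It lay under that of all genes with the replicate number as a block and with total counts only. With 1 sample left out it lay under that of all genes except without aged replicate 1.

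By direction, 26 of the 29 Hox genes tested had a log2 fold change of aged over young above 0, against 47.0% of all genes. Both aged samples lay above both young ones for 19 of the 29, where 23.3% of all genes did so, and below them for 0, where 22.8% did. The median log2 fold change was 0.49 over the Hox genes and -0.04 over all genes tested. Summed over the 39 genes the Hox RNA was 295 and 254 CPM in the aged samples and 177 and 219 CPM in the young. The difference between replicates was of like size to part of this: the median of aged replicate 2 minus aged replicate 1 was -0.28, with 8 of 29 genes higher in replicate 2, and that of young replicate 2 minus young replicate 1 was 0.28, with 26 of 29 higher.

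Without young replicate 1, the sample with the lymph node signal, 20 of the 29 Hox genes were higher in aged samples, where 51.8% of all genes were, and the median was 0.36. Without aged replicate 1, which had the highest Hox sum, 24 were higher, against 44.1% of all genes, and the median was 0.28. Scaling the libraries by their total counts alone moved the median of all genes to -0.22 and that of the Hox genes to 0.32, with 22 of 29 above 0, Hoxa6, Hoxa9, Hoxb2 and Hoxb5 then being below it, and 32.03% of all genes above 0.

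Anterior genes, which act in hindbrain, pharynx and neck, were present at low to middle levels and had the smallest median difference between ages of the 3 regions. Hoxb3, a hindbrain gene, stood at 15.1 and 10.4 CPM in aged replicates 1 and 2 and at 7.17 and 13.3 CPM in young replicates 1 and 2 (log2 fold change 0.31, SE 0.40, adjusted p = 0.753). Hoxa3, needed for thymus and parathyroid, stood at 8.67 and 7.10 CPM in aged and 6.26 and 6.68 CPM in young samples (0.29, SE 0.23, adjusted p = 0.623). The groups overlapped for Hoxb3 and were apart by little for Hoxa3, of whose exon bases 25.4% are shared with antisense genes. Hoxb2, which patterns the hindbrain, had 6.11 and 4.92 CPM in aged and 3.22 and 6.60 CPM in young samples (0.17, SE 0.43). Young replicate 2 held the highest Hoxb2 value of all.

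Hoxa2 and Hoxd3 were tested at lower levels, at 0.403 to 0.786 CPM and 0.390 to 0.610 CPM, with the groups overlapping in both. Of the 6 anterior genes tested 4 had higher and 2 lower mean values in aged samples, with a median log2 fold change of 0.23 and 2 genes without overlap. The median was -0.16 without young replicate 1, and without aged replicate 1 it was 0.016. Hoxb3 and Hoxb2 share 52.9% and 27.3% of their exon bases with the antisense gene Hoxb3os, and Hoxd3 shares 62.3% of its bases with Hoxd4 and a read-through gene on its own strand. As the strand setting of the counting is not given in the sources used here, these genes are uncertain.

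Central genes, those of the trunk, carried most of the Hox RNA, from 64.0% to 71.5% of the CPM per kb in each sample. Hoxc8, which patterns the thoracic skeleton and brachial motor neurons and restrains brown fat formation, stood at 56.7 and 42.7 CPM in aged and 33.5 and 37.3 CPM in young samples (log2 fold change 0.49, SE 0.20, adjusted p = 0.499). Hoxc6, a thoracic gene with a known role in the mammary gland, had 28.0 and 22.5 CPM in aged and 15.1 and 18.3 CPM in young samples (0.60, SE 0.21, adjusted p = 0.469). Hoxd8 had 17.96 and 14.3 CPM in aged and 10.3 CPM in each of the young samples (0.65, SE 0.21, adjusted p = 0.457). In all of these, aged replicate 1 was highest and the groups did not overlap.

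The same order held in Hoxc5 and Hoxc4, genes of the neck and upper thorax at the other end of the Hoxc cluster. Hoxc5 had 16.04 and 10.2 CPM in aged and 7.20 and 8.27 CPM in young samples (0.76, SE 0.30, adjusted p = 0.488). Hoxc4 had 8.39 and 7.29 CPM in aged and 4.60 and 6.03 CPM in young samples (0.56, SE 0.26). Every Hoxc gene tested was higher in aged samples, 7 of 7, with a median log2 fold change of 0.60. Without young replicate 1 the count was again 7 of 7 and the median 0.47.

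In the Hoxa cluster, Hoxa7, a thoracic gene, had the difference with the smallest error. It stood at 14.0 and 13.5 CPM in aged and 8.66 and 9.89 CPM in young samples (log2 fold change 0.57, SE 0.19, unadjusted p = 0.0401, adjusted p = 0.461 in edgeR's test), and the antisense gene Hoxaas3 shares 20.4% of its exon bases. Hoxa5, a gene of lung and mammary development and of fat depots, had 6.44 and 5.12 CPM in aged and 3.92 and 4.50 CPM in young samples (0.46, SE 0.26, adjusted p = 0.548). Hoxa4, a gene of the neck vertebrae, had 2.70 and 3.01 CPM in aged and 2.11 and 2.64 CPM in young samples (0.27, SE 0.29). The groups were apart in each of these. They overlapped for Hoxa6, a thoracic gene, with 3.02 and 2.28 CPM in aged and 1.89 and 2.83 CPM in young samples (0.17, SE 0.36).

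Central genes of the Hoxb cluster differed among themselves in how far the ages lay apart. Hoxb4, best known in blood stem cells, had 15.5 and 11.6 CPM in aged and 10.9 and 11.5 CPM in young samples (log2 fold change 0.27, SE 0.23). Hoxb5, a gene of the shoulder and the gut's nerve cells, had 7.46 and 5.50 CPM in aged and 5.10 and 7.17 CPM in young samples (0.08, SE 0.31). Hoxb6, a gene of the trunk's lateral mesoderm, had 9.99 and 10.2 CPM in aged and 7.39 and 10.1 CPM in young samples (0.20, SE 0.25). In each of these the distance between the ages was within that between replicates, and the groups overlapped for Hoxb5 and Hoxb6. Hoxb7, expressed in mammary epithelium and breast tumours, had 3.14 and 2.63 CPM in aged and 1.90 and 1.83 CPM in young samples (0.63, SE 0.29, adjusted p = 0.510). Hoxb8, a gene of the spinal cord and of myeloid cells, had 4.56 and 3.75 CPM in aged and 2.45 and 2.76 CPM in young samples (0.67, SE 0.27, adjusted p = 0.498). For these, the young samples lay close to each other and below both aged ones.

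Hoxd4, a neck gene, was the 1 central gene with lower mean values in aged samples, at 5.16 and 3.99 CPM against 4.82 and 6.396 CPM in young samples (log2 fold change -0.29, SE 0.30, adjusted p = 0.689). Its groups overlapped, and 52.3% of its exon bases are shared with Hoxd3 and the read-through gene. Of the 15 central genes, all of them tested, 14 had higher mean values in aged samples and 11 did not overlap, with a median of 0.49. Without young replicate 1 these were 11 genes with higher values and a median of 0.38.

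Posterior genes, those of the lumbar and sacral body, had the largest median log2 fold change of the 3 regions with all 4 samples, though Hoxa9 and Hoxc9 lay under the central median of 0.49. Hoxc10, a gene of lumbar vertebrae, hindlimb motor neurons and subcutaneous fat, stood at 21.9 and 32.6 CPM in aged and 12.1 and 16.5 CPM in young samples (log2 fold change 0.93, SE 0.30, unadjusted p = 0.0344, adjusted p = 0.457 in edgeR's test). Hoxd10, known for its part in hindlimb patterning and lactation, had only 37 and 98 counts in aged and 18 and 19 in young samples, or 0.452, 1.10, 0.220 and 0.257 CPM (1.70, SE 0.58, adjusted p = 0.462). Hoxc11, a gene of the lumbosacral axis and hindlimb, had 0.355 and 0.999 CPM in aged and 0.293 and 0.393 CPM in young samples (0.98, SE 0.64). In all of these, aged replicate 2 was the highest sample, and without it the log2 fold change was 0.61 for Hoxc10, 0.92 for Hoxd10 and 0.045 for Hoxc11. Hoxc10 shares 8.70% of its exon bases with Hoxc5 on the same strand.

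Genes of group 9 did not share that outlying sample. Hoxd9 had 6.995 and 5.54 CPM in aged and 3.501 and 3.69 CPM in young samples (log2 fold change 0.80, SE 0.26, adjusted p = 0.457). Hoxb9 had 1.64 and 1.67 CPM in aged and 0.854 and 0.759 CPM in young samples (1.04, SE 0.32, adjusted p = 0.445). Both have aged samples clear of the young. Hoxc9, which sets thoracic identity in motor neurons, had 10.9 and 9.57 CPM in aged and 7.502 and 9.09 CPM in young samples (0.30, SE 0.22). Hoxa9 had 11.4 and 11.7 CPM in aged and 9.36 and 11.8 CPM in young samples (0.13, SE 0.22, adjusted p = 0.820), with young replicate 2 the highest. Hoxa10, a gene of the uterus and lumbar spine, had 9.34 and 7.94 CPM in aged and 4.75 and 7.36 CPM in young samples (0.51, SE 0.31, adjusted p = 0.557).

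All 8 posterior genes tested had higher mean values in aged samples, 6 without overlap, with a median log2 fold change of 0.87. Without young replicate 1 the median was 0.74 and without aged replicate 2 it was 0.62, next to a central median of 0.61 in the same fit. The other 8 posterior genes are those at or near 0.

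**Figure D3:**
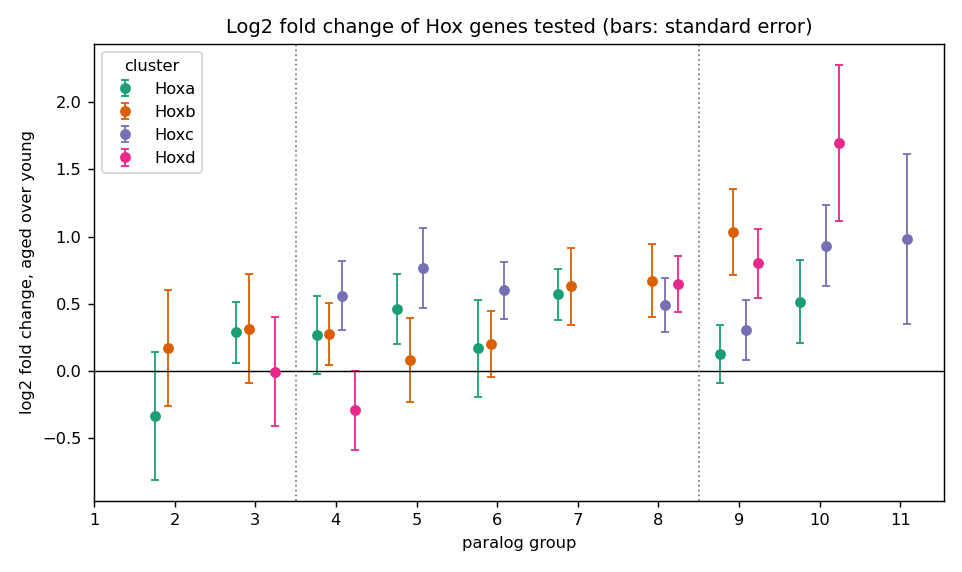
Log2 fold change of aged over young for the Hox genes tested, all but 1, by paralog group and coloured by cluster, with bars of 1 standard error and dotted lines between anterior, central and posterior groups. Medians over all 29 genes tested are 0.23, 0.49 and 0.87 from anterior to posterior, and Hoxd10 is highest at 1.70, a value that is 0.92 without aged replicate 2.

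Across the 29 genes the log2 fold change correlated with paralog number with Pearson's r of 0.63 and Spearman's rho of 0.61, as a description over genes that share 4 libraries and are not independent. Without young replicate 1 r was 0.61, and without aged replicate 2 it was 0.34. Between the aged samples themselves, replicate 2 minus replicate 1, r was 0.52, and between the young samples it was -0.31. A slope along the axis was thus present between samples of 1 age as well as between ages.

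A shift in the body level taken would be expected to change the proportions of the Hox genes, whatever their summed level. A different mix of cell types in the pad could change these proportions too, and its part was not tested. Posterior genes carried 22.4% and 30.0% of the Hox CPM per kb in aged replicates 1 and 2 and 21.9% and 23.1% in young replicates 1 and 2. Anterior genes carried 6.98% and 5.95% of it in aged and 6.55% and 8.59% in the young samples. Aged replicate 1 lay between the young samples for both shares, and aged replicate 2 outside them. The mean posterior share was 26.2% ± 5.35 (SD, n = 2) in aged and 22.5% ± 0.801 (SD, n = 2) in young samples, a difference of 3.74 percentage points that was smaller than the SD of the aged samples and became -0.048 without aged replicate 2.

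The mean paralog number, in which each Hox gene's group number is weighted by its CPM per kb, gave the same picture. It was 6.80 and 7.11 in aged and 6.75 and 6.67 in young samples, that is, 6.96 ± 0.219 against 6.71 ± 0.0503 (SD, n = 2). The difference of 0.249 of a paralog group was 0.094 without aged replicate 2. Both aged values lay above both young ones, and the gap between the aged samples was larger than that between aged replicate 1 and either young sample. The centre of the Hox RNA lay between groups 6 and 8 in each of the 4 samples.

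**Figure D4:**
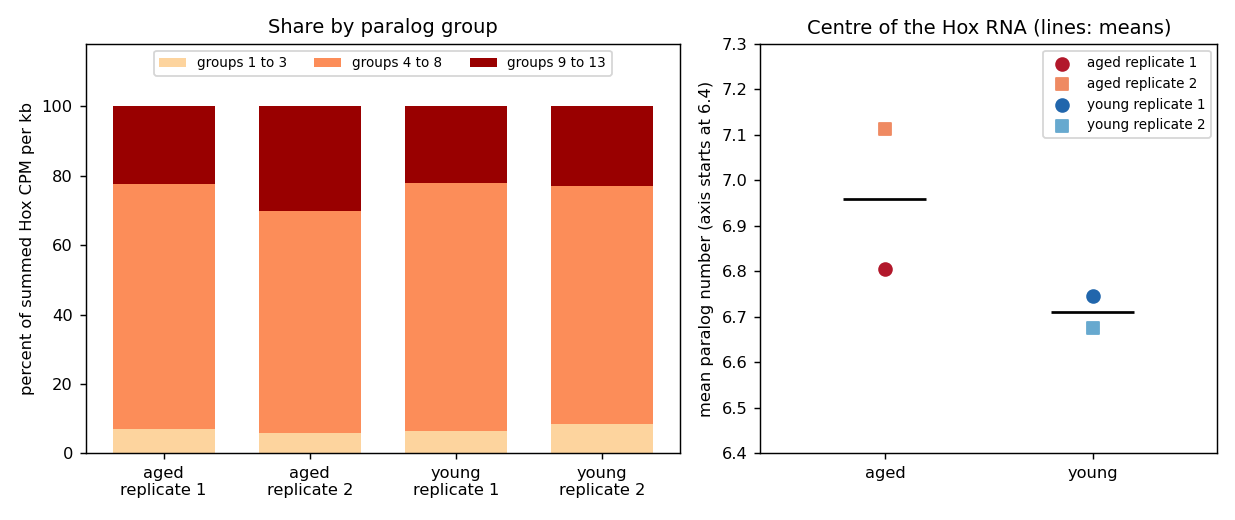
Left, percent of the summed Hox CPM per kb carried by paralog groups 1 to 3, 4 to 8 and 9 to 13 in each sample; right, mean paralog number weighted by CPM per kb for each sample, with lines at the group means and an axis that starts at 6.4. Aged replicate 2, at 30.0% posterior and 7.11, stands away from the other 3 samples, which lie at 21.9% to 23.1% and 6.67 to 6.80.

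The excess of aged replicate 2 lay mostly in Hoxc10, at 17.1 CPM per kb against 11.5 in aged replicate 1. Hoxd10, at 0.606 against 0.249 CPM per kb, and Hoxc11, at 0.495 against 0.175, were also higher. Hoxa10 was lower, at 2.43 against 2.86 CPM per kb. Group 10 carried 20.2% of the Hox CPM per kb of aged replicate 2. It carried 12.96% in aged replicate 1 and 11.7% and 13.3% in the young samples, while group 9 carried 9.28% to 9.99% in every sample. Ratios of neighbouring genes within a sample, per kb, show where the step lay. Hoxc10 over Hoxc8 was 1.13 in aged replicate 2 against 0.573 in aged replicate 1 and 0.534 and 0.658 in the young samples. Hoxc10 over Hoxc9 was 4.34 against 2.55, 2.05 and 2.31, and Hoxd10 over Hoxd9 was 0.234 against 0.0761, 0.0738 and 0.0822. In these 3 ratios aged replicate 1 differed from the young samples by less than aged replicate 2 differed from it.

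Other ratios were mixed. Hoxb9 over Hoxb8 was 0.368 and 0.457 in aged and 0.357 and 0.281 in young samples. Hoxc11 over Hoxc10, at low counts of Hoxc11, was 0.0153 and 0.0289 in aged and 0.0229 and 0.0225 in young samples. Both were highest in aged replicate 2. Hoxa10 over Hoxa9 was 1.40 and 1.16 in aged and 0.865 and 1.06 in young samples, with aged replicate 1 highest. Hoxd9 over Hoxd8 was 0.500 and 0.496 in aged and 0.437 and 0.459 in young samples. Hoxc6 over Hoxc8 lay between 0.528 and 0.620 in all of them, with aged replicate 2 highest. Hoxb4 over Hoxb2, a central over an anterior gene, was 4.62 and 2.36 in the young samples, on either side of the aged values of 3.45 and 3.19.

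Genes that mark limb and flank regions by other means were set beside the Hox genes. Of 14 such transcription factors 13 were tested, 8 with higher and 5 with lower mean values in aged samples, with 0 called by edgeR and a median log2 fold change of 0.14. These were 6 of 13 with higher values and a median of -0.04 without young replicate 1, and without aged replicate 1 the median was -0.09. Tbx5, the forelimb gene, was present in all samples at 1.26 and 1.46 CPM in aged and 1.32 and 2.14 CPM in young (log2 fold change -0.35, SE 0.39). Tbx4, a hindlimb gene, had 0.232 and 0.595 CPM in aged and 0.134 and 0.379 CPM in young samples (0.69, SE 0.77). Pitx1, which also sets hindlimb identity, had 1.00 and 0.202 CPM in aged and 0.159 and 0.203 CPM in young samples (1.73, SE 0.89, adjusted p = 0.532). The highest Pitx1 value belonged to aged replicate 1. The highest Tbx4 value belonged to aged replicate 2, the sample with the raised group 10 share.

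Tbx15, a gene of trunk dermis, subcutaneous fat and fast muscle fibres, had 39.1 and 63.0 CPM in aged and 17.0 and 22.7 CPM in young samples (log2 fold change 1.36, SE 0.32, adjusted p = 0.404 in edgeR's test and 0.0127 in DESeq2). Its groups did not overlap, and its highest sample was aged replicate 2, as for Hoxc10. Shox2, a gene of the proximal limb, lay between 8.43 and 10.9 CPM (0.14, SE 0.22), and En1, a gene of ventral limb and trunk dermis, between 1.38 and 1.67 CPM (0.02, SE 0.32). Neither separated the ages.

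Marker lists of other cell types also differed between samples, in both directions. The 8 skeletal muscle genes were all higher in aged samples and without overlap, with a median log2 fold change of 2.05. DESeq2 called 6 of these, against 3.86% of all genes, and edgeR 0. Among them Atp2a1, the calcium pump of fast fibres, had a log2 fold change of 2.22 (SE 0.45), and Myh1, a fast myosin, 3.13 (SE 2.07), with values of 1130 and 193 CPM in aged and 149 and 1.99 CPM in young samples. The summed muscle level was highest in aged replicate 2, the sample with the most posterior Hox RNA. Its part in the Hox values was not tested.

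Adipocyte genes were higher in aged samples for 7 of 8, with a median of 0.44, or 0.17 without aged replicate 1, and summed levels of 8801 and 6148 CPM against 5697 and 5663 CPM. Lep, which encodes leptin, had a log2 fold change of 1.20 (SE 0.28) and Adipoq, which encodes adiponectin, 1.00 (SE 0.28). Aged replicate 1 was highest both for these and for the summed Hox level. Of 8 stromal fibroblast genes 4 were higher and 4 lower, with a median of -0.12, or 0.55 without young replicate 2, with summed levels of 1411 and 1105 CPM in aged and 1933 and 2155 CPM in young samples, Dpp4 at -1.79 (SE 0.70) and Col1a1 at -1.60 (SE 0.27). The 8 mammary epithelial genes had a median of 0.25, led by the basal keratins Krt5 at 1.36 (SE 0.72) and Krt14 at 1.22 (SE 0.70), and -0.27 without young replicate 1.

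Lymph node genes had a median of -3.32 with all samples, with Ccr7 at -4.98 (SE 2.72) and Cr2 at -4.15 (SE 2.67), and 3.17 without young replicate 1. Epidermal and hair genes were at low levels, with sums of 36.0 and 36.4 CPM in aged and 9.92 and 24.7 CPM in young samples. Krt71 had a log2 fold change of 2.35 (SE 0.50) and Dsg3 of 1.498 (SE 0.88), and the hair keratin Krt35 was at 0 in all samples. Among the defining genes of mesothelium, the lining of visceral fat, Wt1, Msln and Upk3b stayed at or under 0.0898 CPM, and of the others Upk1b had a log2 fold change of -1.52 (SE 0.48) and Lrrn4 of 0.13 (SE 0.23). Smooth muscle genes had a median of 0.24, or -0.34 without young replicate 1 and 1.13 without young replicate 2, with Des at 2.31 (SE 0.26), a gene that skeletal muscle also expresses, and Actg2 at -1.24 (SE 0.59). Of 6 endothelial genes 3 were higher and 3 lower, 5 of them with overlap, and the median was 0.12, or -0.07 without aged replicate 1. The largest differences were Vwf at 0.97 (SE 0.52) and Cdh5 at 0.37 (SE 0.25). Of 6 brown fat genes 5 were higher and 1 lower, with a median of 0.63. Elovl3 was at 1.95 (SE 0.75) and Cox8b at 0.88 (SE 0.17), and the lower gene at -0.78, with both aged samples below both young ones. DESeq2 called 1 adipocyte, 2 stromal fibroblast, 1 smooth muscle and 2 brown fat genes, against 3.86% of all genes. It called 0 genes in the mammary epithelial, lymph node, epidermal, mesothelial and endothelial lists, and edgeR called 0 in every list. The part of these cell types in the Hox values was not tested.

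**Figure D5:**
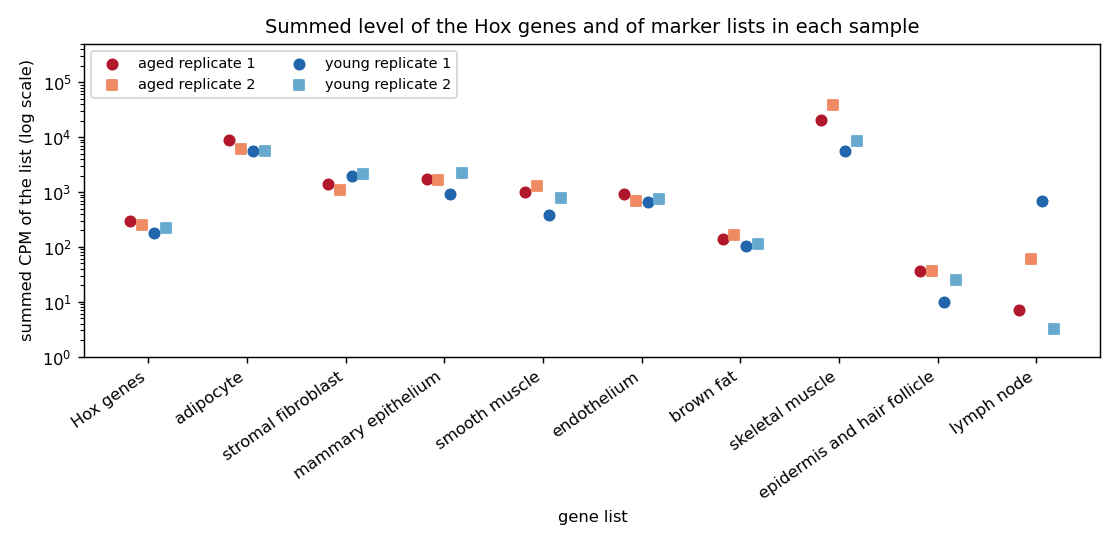
Summed CPM (log scale) of the 39 Hox genes and of 9 marker lists in aged replicates 1 and 2 and young replicates 1 and 2. Skeletal muscle is higher in both aged samples, lymph node RNA is high in young replicate 1 at 688 CPM, and the Hox sum runs from 177 to 295 CPM.

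Hox proteins bind DNA together with TALE cofactors of the Pbx, Meis and Pknox families. All 9 were tested, 4 with higher and 5 with lower mean values in aged samples, and the median log2 fold change was -0.13. Pknox2 had 22.8 and 32.5 CPM in aged and 8.06 and 9.95 CPM in young samples (log2 fold change 1.62, SE 0.27, adjusted p = 0.360 in edgeR's test and 8.9e-05 in DESeq2). It lay higher in both aged samples than in both young ones, with aged replicate 2 highest.

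Polycomb proteins keep unused Hox genes silent and Trithorax proteins keep used ones active. Of the 21 genes tested 8 had higher and 13 lower mean values in aged samples, with a median of -0.07, or 0.0082 without aged replicate 2. Ezh2, the histone methyltransferase of Polycomb, had 18.9 and 19.9 CPM in aged and 32.5 and 23.7 CPM in young samples (log2 fold change -0.54, SE 0.22, adjusted p = 0.500). Bmi1, of the Polycomb complex that acts on histone H2A, had 48.5 and 57.1 CPM in aged and 40.3 and 33.9 CPM in young samples (0.51, SE 0.17, adjusted p = 0.463). Ezh2 was highest in the sample with the lymph node signal.

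Retinoic acid and Cdx factors set Hox expression in the embryo. Cdx2 and Cdx4 had 0 counts and Cdx1 at most 0.0122 CPM, and of the 8 genes tested among 12, 5 had higher and 3 lower mean values in aged samples, with a median of 0.21, or 0.013 without aged replicate 1. Aldh1a2, the retinoic acid synthesizing enzyme of the embryo, had 0.367 and 0.371 CPM in aged and 1.52 and 0.691 CPM in young samples (log2 fold change -1.58, SE 0.53, adjusted p = 0.460). Rarb, a retinoic acid receptor and itself a target of the pathway, had 7.13 and 6.24 CPM in aged and 2.45 and 2.72 CPM in young samples (1.37, SE 0.25, adjusted p = 0.361 in edgeR's test and 0.000113 in DESeq2). The other gene of this list that DESeq2 called, Aldh1a1, had 66.2 and 67.2 CPM in aged and 25.8 and 27.5 CPM in young samples (1.32, SE 0.13) and is named after its values were seen.

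The clusters also hold genes that are no Hox gene, 46 in the annotation, of which 15 were tested. Of these 5 had higher and 10 lower mean values in aged samples with a median log2 fold change of -0.31. The count was 8 of 15 higher and the median 0.055 without young replicate 1. Only 3 reached a mean of 1 CPM. Hoxb3os, antisense to Hoxb3, had 10.4 and 9.97 CPM in aged and 6.31 and 12.5 CPM in young samples (0.11, SE 0.39), low in young replicate 1 like Hoxb3 and Hoxb2 with which it overlaps. Hoxd3os1 had 2.21 and 1.303 CPM in aged and 1.43 and 1.504 CPM in young samples (0.26, SE 0.40). Hotairm1, in the Hoxa cluster, had 0.954 and 1.10 CPM in aged and 1.61 and 0.989 CPM in young samples (-0.34, SE 0.40), highest in young replicate 1.

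MicroRNAs of the miR-10 and miR-196 families lie within the clusters, and those of the miR-196 family act on Hoxb8 and Hoxc8 among others. Their mature forms in RefSeq (GRCm38.p6), with the seed, bases 2 to 8, in capitals, are shown because each family shares 1 seed across clusters.
miR-10a-5p, Hoxb cluster, chr11:96317186-96317208: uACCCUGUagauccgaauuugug
miR-10b-5p, Hoxd cluster, chr2:74726074-74726096: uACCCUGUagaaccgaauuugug
miR-196a-5p, Hoxc cluster, chr15:102973365-102973386: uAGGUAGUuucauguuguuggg
miR-196b-5p, Hoxa cluster, chr6:52230129-52230150: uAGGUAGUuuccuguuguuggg
The libraries were not prepared from small RNA, so counts over the hairpin genes do not measure these mature forms. Mir10a had 27 and 19 counts in aged and 12 and 11 in young samples (log2 fold change 0.87, adjusted p = 0.530 in edgeR's test). Mir196a-2, between Hoxc9 and Hoxc10, had 12 and 11 counts in aged and 5 and 6 in young samples, too few to be tested. Mir10b had at most 3 counts in a sample and Mir196b 0. Mir615, a further hairpin gene in the Hoxc cluster, had 37 and 31 counts in aged and 40 and 37 in young samples (-0.31, SE 0.36, adjusted p = 0.732).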

How the data were processed

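RNA was extracted from whole mammary fat pads and sequenced after depletion of ribosomal RNA with a directional kit. The authors deposited whole-number read counts for each gene, not normalized, in 1 column per sample. Submitters' notes name featureCounts, R 3.6.1 and GRCm38; aligner, annotation release and strand setting are not given in the sources used here.

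Samples were grouped by the age in their labels. Genes passing filterByExpr (22485) were scaled by TMM and fitted with age as the only term by edgeR 4.0.16 (glmQLFit and glmQLFTest, R 4.3.3), with Benjamini-Hochberg adjustment over all of them. DESeq2 1.42.0, the study's tool, was an alternative. The SE is the log2 fold change divided by the square root of F. CPM used TMM-scaled totals, and log2 CPM a prior count of 2. Abundance was ranked between genes, and shares were taken, per kilobase of exon (GENCODE M21). The 1 CPM cut-off, the counts from Hoxd8 to Hoxd11 and the order of genes on the CPM scale were not divided by length. Other scalings, filters, a replicate block and leaving out each sample were also run. The fit was tested on simulated data with changes larger than the Hox median, so it was not tested for changes of that size. Any pair of libraries differed by far more than sampling noise. The labels call the 2 samples of each age biological replicates without naming animals, so p-values measure the spread between these samples. Reads without molecular identifiers are not independent molecules.

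The members and gene lists were chosen with earlier results of these data known. Per-sample values were given for Hox genes and other cluster genes with a mean of 1 CPM or more, and of each other list the genes with the 2 largest absolute log2 fold changes, with Tbx5, Tbx4, Pitx1, Tbx15, Shox2 and En1. The posterior share and mean paralog number are descriptions with no test. Of the table's identifiers 55227 matched the annotation. No protein sequences were used here. Values of 2 genes that this rule names are not reported here, although they are included in the counts, sums and medians. No columns of the authors' own comparisons were used.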

Additional observations from a re-analysis of the deposited data

How the results depend on the processing

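No Hox gene was called by edgeR or DESeq2 under any alternative run. The 7 Hox genes at an unadjusted p under 0.05 became 0 with scaling by total counts only (12.2% of all genes in that fit) and 1 with the replicate block (5.99%). They became 4 with the crossed replicate block (11.1%), which was chosen after seeing the data. They were 9 with DESeq2 (13.2%) and 5 to 7 with the other scalings and filters, where the share of all genes was not counted. With a sample left out they were between 1 and 7: 2 without aged replicate 1 (4.28%), 1 without aged replicate 2 (3.98%), 2 without young replicate 1 (12.2%) and 7 without young replicate 2 (27.7%). The median log2 fold change of the Hox genes, 0.49, ranged from 0.28 without aged replicate 1 to 0.60 without young replicate 2. Same-numbered samples did not deviate together, with a correlation of -0.48 over all genes and 0.01 over the Hox genes. With 2 samples an age, the negative value means that aged replicate 1 deviated with young replicate 2 over all genes. Whether samples of different ages were handled together is not stated in the labels.

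Of 232 log2 fold changes of Hox genes under alternatives on all 4 samples 226 kept their sign. Total counts only gave -0.0082 for Hoxa6, -0.056 for Hoxa9, -0.094 for Hoxb5 and -0.0096 for Hoxb2, and Hoxd3 was 0.0224 with the replicate block and 0.0218 with the crossed one. With a sample left out, 104 of 116 kept their sign. The ranges of the genes that did not were -0.74 to 0.22 for Hoxa2, -0.10 to 0.49 for Hoxa6, -0.033 to 0.30 for Hoxa9, -0.26 to 0.78 for Hoxb2, -0.065 to 0.83 for Hoxb3, -0.17 to 0.35 for Hoxb5, -0.0092 to 0.45 for Hoxb6 and -0.29 to 0.35 for Hoxd3. Hoxc11 ranged from 0.045 to 1.52 and Hoxd10 from 0.92 to 2.18, both lowest without aged replicate 2. The posterior share difference ranged from -0.048 to 7.52 percentage points with a sample left out, negative without aged replicate 2, and from 1.99 to 4.34 under other weights. The mean paralog difference ranged from 0.094 to 0.404 and from 0.125 to 0.299. The cause was not tested.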
